A study of Sus scrofa with 10 samples.

Results

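The 100 lncRNA transcripts described here stood highest for expression in the suckling period relative to later life among 431 lncRNAs of pig blood. The 431 had passed limits on span, position and level. Long noncoding RNAs (lncRNAs) are transcripts that are not predicted to encode a protein, and most of them are expressed at lower levels than mRNAs. Some act in the nucleus beside the gene they lie next to, others act on distant genes, and for most of them no role is known. Blood in early postnatal life still holds many young red cells, and developing red cells make lncRNAs of their own. Mature pig red cells have no nucleus, so that their RNA dates from the precursor stage.

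The RNA came from whole blood of 10 healthy female pigs of the Chinese Qingyu breed, which received no treatment. A strand-specific library was made from each pig after removal of ribosomal RNA. Newborn pigs (D0) and pigs aged 7 days (D7) and 28 days (D28) gave the 6 libraries of the suckling period, and pigs aged 180 days (D180) or 2 years (Y2) gave the 4 libraries of the late period. There were 2 pigs at each age, and each was sampled at a single age. Expression was given as FPKM, a fragment count divided by transcript length and by the mapped reads of the library. The files hold no counts, so the depth behind each value is unknown, and the 2 pigs per age limit the precision of each mean.

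Members were chosen from the 5946 lncRNA rows of the expression table. Rows with a span of 10000 nt or more, and rows in 2 excluded regions (1 unplaced scaffold, and chromosome 7 with a start between 20000000 and 35000000), were left out, and 5040 rows remained. Of these, 431 had a mean of at least 0.5 FPKM over the 6 suckling libraries and are called the eligible rows below. Each eligible row received a score, the log2 ratio of its suckling mean to its late mean after 0.1 FPKM was added to both, and the 100 highest scores made the set. The difference between the periods therefore chose the members and is described without a test. Scores ran from 5.09 down to 0.65 with a median of 2.23. Over all 5946 rows, without these limits, the highest such score was 6.41. Just inside the limit were TCONS_00006994 with a score of 0.690, TCONS_00104255 with 0.687 and TCONS_00017006 with 0.649, and just outside were TCONS_00146821 with 0.649, TCONS_00042195 with 0.635 and TCONS_00017007 with 0.611.

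Most members were weakly expressed. The median suckling mean was 1.09 FPKM and the median late mean was 0.248 FPKM. Suckling means were under 1 FPKM for 48 members and at least 10 FPKM for 12. The sum over the 100 members lay between 393 and 536 FPKM in the suckling libraries and between 90.7 and 121 FPKM in the late ones. In all 4 late libraries 11 members were listed at 0, against 2.55% of the eligible rows and 5.21% of all rows. These 11 were all of the eligible rows listed so, as the rule favours low late values. For 29 members every suckling library was above every late one, a pattern that 0.875% of all rows and 6.73% of the eligible rows showed. All 29 eligible rows with that pattern were members, as the rule favours them. In bulk blood, fewer cells of a type and less RNA per cell cannot be told apart.

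The heat map of the members by library shows that the set held several courses within the suckling period. D0 had the highest suckling mean for 52 members, D28 for 30 and D7 for 18. Among the eligible rows the highest suckling mean fell at D0 for 74, at D7 for 74 and at D28 for 283 of 431. D7 was the lowest suckling age for 56 members, D28 for 28 and D0 for 16. The most frequent order was highest at D0 and lowest at D7, with 34 members, followed by highest at D28 and lowest at D7, with 22. Over the members, the median of the mean FPKM went from 1.58 in newborns to 0.789 on D7 and 0.966 on D28, and the late ages had 0.183 (D180) and 0.268 (Y2). These shares are no evidence for an early peak beyond the rule, since a row that is high at a single suckling age can qualify through that age.

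**Figure D1:**
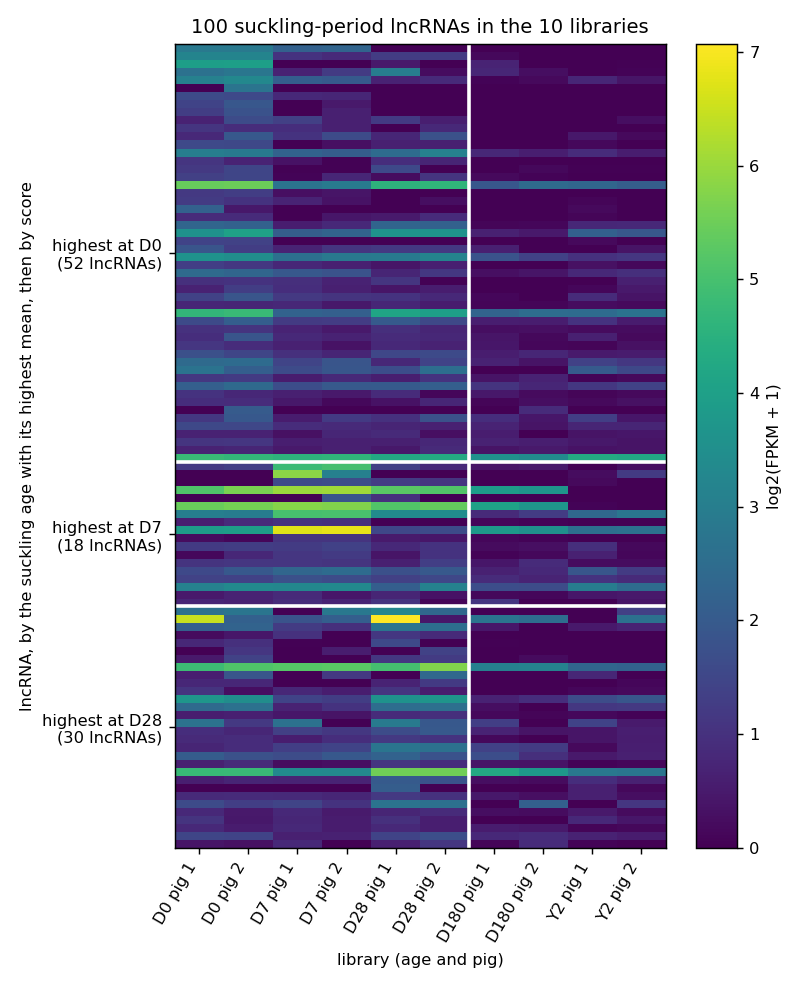
Expression of the 100 lncRNAs (rows) in the 10 libraries (columns) as log2(FPKM + 1), grouped by the suckling age with the highest mean and ordered by score within a group. The 52 lncRNAs highest at D0 form the top block, the 18 highest at D7 the middle block and the 30 highest at D28 the bottom block, and a white line separates the suckling from the late libraries.

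The highest score belonged to TCONS_00186608, a single transcript on the minus strand of chr9:22829076-22829340 (Sscrofa11.1) that overlapped no RefSeq gene. Its FPKM was 6.23 and 6.21 in the D0 pigs, 3.54 and 3.83 in the D7 pigs, and it was listed at 0 in all 6 older pigs. TCONS_00185950, which lies on the minus strand of chr9:9312443-9314727 and overlaps the RefSeq lncRNA LOC110255399, had the same form at a lower level. It stood at 2.07 and 1.97 FPKM at D0, at 0.773 and 0.706 FPKM at D7, and was listed at 0 from D28 on. TCONS_00184962, at chr9:131593471-131594613 on the plus strand and outside RefSeq genes, had 1.65 and 2.81 FPKM at D0, 0 and 0.410 FPKM at D7, and was listed at 0 in the older pigs. These 3 lncRNAs were thus highest in newborns and listed at 0 from D28 on. The locus of TCONS_00184962 was not at 0, as other rows overlap it there. Its summed FPKM was 1.90 and 1.05 at D28 and between 0.198 and 0.889 in the late pigs.

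Other high scores came with a peak at D0. TCONS_00099870, 160 nt long and inside the protein-coding gene C2H11orf24 (chr2:4691561-4691720, minus strand), had 8.04 and 8.09 FPKM at D0, values between 0.783 and 1.38 FPKM at D7 and D28, and at most 0.120 FPKM in the late pigs. TCONS_00152689, on the minus strand at chr6:50584753-50585074, overlaps KCNN4, which encodes the calcium-activated potassium channel of red cells and lymphocytes. Its levels were 7.69 and 8.83 FPKM at D0, 3.33 and 3.02 FPKM at D7, 0.606 and 0.779 FPKM at D28, and between 0.0563 and 0.679 FPKM in the late pigs. The D0 pigs were well above all others in both cases.

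Several high scores came with a peak at D7. TCONS_00119399 and TCONS_00119400 start at the same base of chromosome 3 (chr3:118016880-118018022 and chr3:118016880-118018031, minus strand) and overlap the RefSeq lncRNA LOC110260147. TCONS_00119399 had 1.25 and 1.47 FPKM at D0, 27.1 and 29.9 at D7, 1.55 and 0.751 at D28, and at most 0.379 in the late pigs. Its partner had 7.27 and 6.88 FPKM at D0, 31.2 and 32.1 at D7, 9.37 and 9.78 at D28, and between 0.793 and 5.86 in the late pigs. Their common peak at D7 was alike in both pigs.

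TCONS_00128901, within KCNN3 (chr4:95086271-95087831, minus strand), another calcium-activated potassium channel gene, was listed at 0 in both D0 pigs, had 1.96 and 2.13 FPKM at D7 and 1.37 and 1.11 FPKM at D28, and was at 0.143 FPKM or less in the late pigs. The largest D7 value of the set was that of TCONS_00090324 (chr18:25539051-25539274, minus strand, no RefSeq gene). Its FPKM was 14.1 and 14.6 at D0, 105 and 110 at D7, 1.81 and 2.08 at D28, 12.9 and 10.7 at D180, and 5.05 and 5.18 at Y2. D7 was the highest age of this row and D28 the lowest, but the sum of the 3 rows of its locus was 6.08 FPKM at D28 and 5.87 at Y2, against 109 at D7.

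The plots of 8 members by age show these courses beside those of more abundant lncRNAs. TCONS_00026569 and TCONS_00026570 (chr11:66218787-66219107 and chr11:66210464-66219107, plus strand, no RefSeq gene) had the highest suckling means. TCONS_00026570 stood at 42.6 and 47.1 FPKM at D0, 53.9 and 52.3 at D7, 34.5 and 41.3 at D28, and 15.4 and 11.8 at D180, and reached at most 0.0582 FPKM at Y2. TCONS_00038691 (chr13:21310133-21310405, plus strand, no RefSeq gene) had between 27.8 and 52.2 FPKM in the suckling pigs, 7.44 and 7.79 at D180, and 3.97 and 3.68 at Y2. For both, the suckling pigs did not overlap the late ones.

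**Figure D2:**
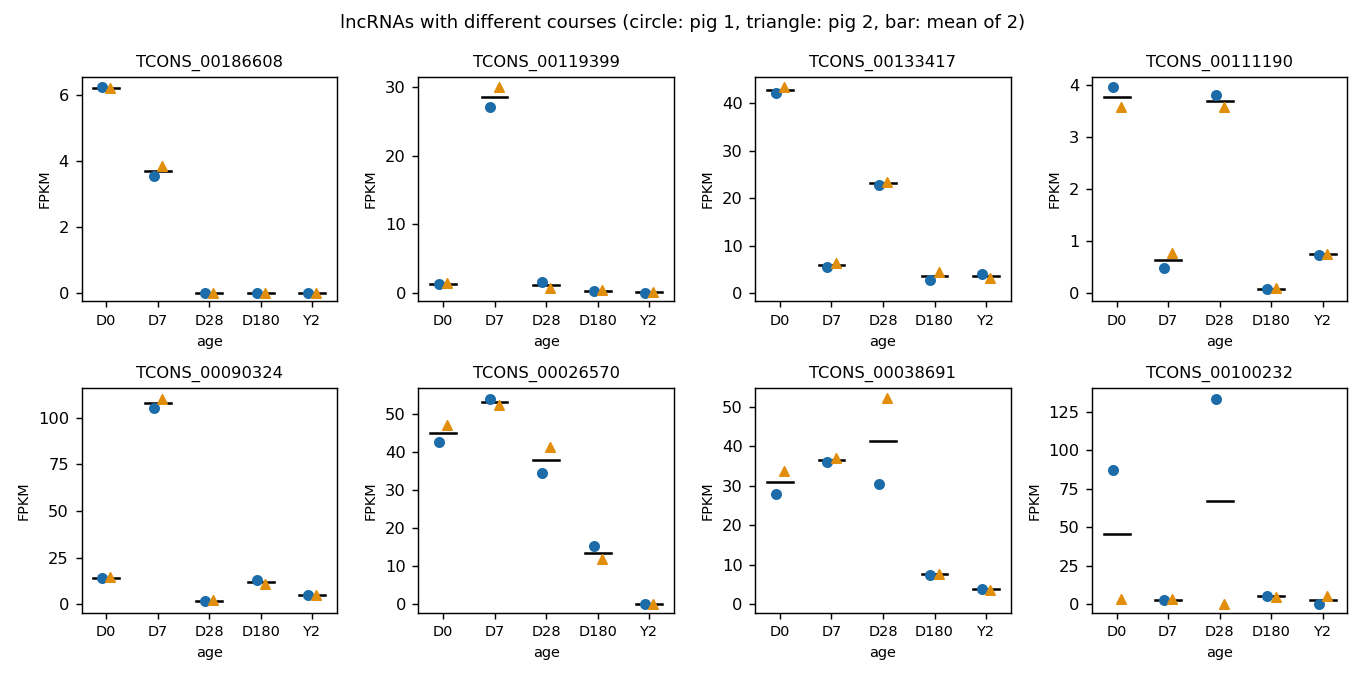
FPKM of 8 members at the 5 ages on linear axes, with a circle for pig 1, a triangle for pig 2 and a bar at the mean of 2. TCONS_00186608 is at 0 from D28 on, TCONS_00119399 and TCONS_00090324 peak at D7, TCONS_00133417 and TCONS_00111190 dip at D7, and TCONS_00100232 is set by 1 pig at D0 and 1 at D28.

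Whether the members changed between adjacent ages within a period was tested with limma on log2(FPKM + 1) over all 5946 lncRNA rows, with the 5 ages sharing 1 estimate of the spread. A change was called at a Benjamini-Hochberg adjusted p of at most 0.05. From D0 to D7, 23 members in 18 loci (members that overlap on 1 strand count as 1 locus) fell and 6 members in 5 loci rose, while 71 did not pass the test. Over all rows, 0.992% fell and 0.875% rose at that step, and among the eligible rows 6.73% fell and 3.71% rose. The excess of falling members is not independent of the rule, because rows high at D0 alone could enter the set. The median log2 change was -0.50 for the members, 0.16 for the eligible rows and 0.04 for all rows. After median-of-ratios scaling, which sets each library to the typical mRNA in place of its mapped reads, 43 members fell and 7 rose, against 4.12% and 6.05% of all rows.

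TCONS_00195660 showed the largest fall from D0 to D7, by 3.97 on the log2 scale (SE 0.23, adjusted p = 0.000254, limma). It covers chrMT:720-2205 on the plus strand, a stretch that holds a mitochondrial ribosomal RNA gene and a tRNA gene in RefSeq, and had 14.4 and 14.9 FPKM at D0 against at most 0.631 FPKM in every other pig. TCONS_00195661, from the same stretch, had 5.62 FPKM in 1 newborn and was listed at 0 in the other 9 pigs. The libraries had been depleted of ribosomal RNA, and the part of that depletion in these values was not tested. TCONS_00099870 fell by 2.24 (SE 0.10, adjusted p = 0.000135, limma). TCONS_00195448, on the scaffold AEMK02000695.1, showed the largest rise, of 4.46 (SE 0.77, adjusted p = 0.0379, limma), but its D7 pigs had 56.5 and 7.40 FPKM against 0 in both newborns.

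From D7 to D28, 17 members in 13 loci rose and 12 members in 10 loci fell. Over all rows 4.24% rose and 1.01% fell, and among the eligible rows 20.4% rose and 4.18% fell. The members' share that rose was thus close to that of the eligible rows. The share that fell is not independent of the rule, because rows high at D7 alone could enter the set. The median log2 change was 0.14 for the members, 0.30 for the eligible rows and 0.07 for all rows. Median-of-ratios scaling turned the balance, with 11 members that rose and 22 that fell against 1.92% and 4.42% of all rows, and a members' median of -0.27. The largest fall was that of TCONS_00090324, by 5.21 (SE 0.16, adjusted p = 1.4e-05, limma), followed by TCONS_00195448 and TCONS_00119399, which fell by 4.46 and 3.80. TCONS_00195448 shares its locus with other rows, and the mean locus sum did not fall. That sum was 264 and 262 FPKM in the D7 pigs and 232 and 357 FPKM in the D28 pigs.

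Both suckling steps were called for 22 members, shown as diamonds in the plot of both steps. In 9 loci, 12 members were lower at D7 and higher again at D28. That course was called for 15 eligible rows and 0.252% of all rows (15 rows). In 5 loci, 6 members were higher at D7 and then lower, as were 7 eligible rows and 0.454% of all rows (27 rows). Among these 6 was TCONS_00195448, whose mean locus sum did not fall to D28. In 3 loci, 4 members fell at both steps, as did 4 eligible rows and 0.101% of all rows (6 rows). These counts are not independent of the rule, as rows high at only some suckling ages could enter the set. None of the members rose at both steps by limma with adjusted p, while 2 did at an unadjusted p of at most 0.05, and 1 did with adjusted p after either other scaling. With median-of-ratios scaling the dip at D7 was called for 9 members, of which 8 were among the 12. That dip was called for 12 eligible rows and 0.336% of all rows. The peak at D7 was called for the same 6 members, among 20 eligible rows and 2.34% of all rows. No step within a period was called for 52 members.

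**Figure D3:**
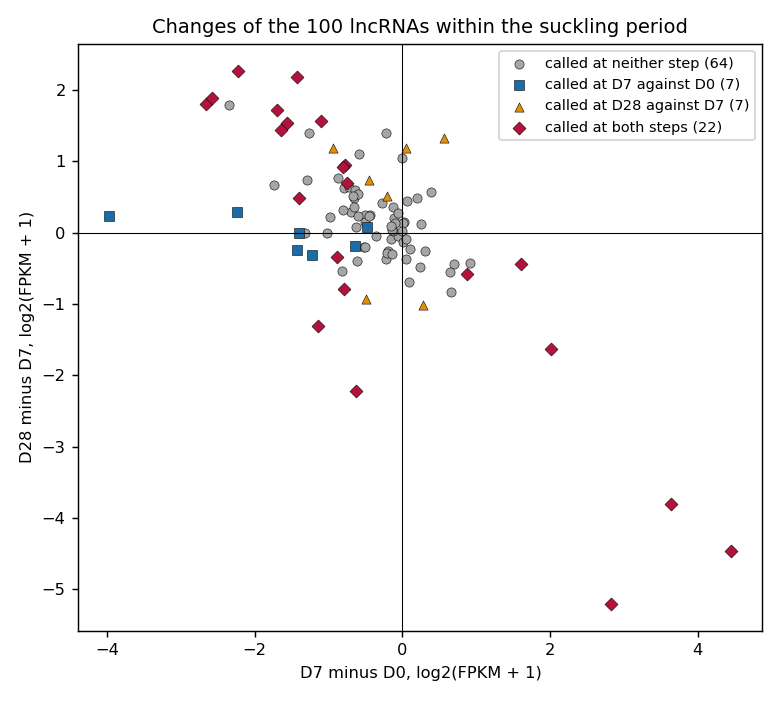
Change of each of the 100 lncRNAs from D0 to D7 (horizontal axis) and from D7 to D28 (vertical axis), both as differences of log2(FPKM + 1), with calls at an adjusted p of at most 0.05. The 22 lncRNAs called at both steps are diamonds, with 12 in the upper left, where a fall is followed by a rise.

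The dip at D7 was called for 3 of the 4 members of a locus on the plus strand of chromosome 5, which overlaps the RefSeq lncRNA LOC100511509. TCONS_00133417 (chr5:42308951-42314800) had 42.2 and 43.5 FPKM at D0, 5.44 and 6.43 at D7, 22.9 and 23.5 at D28, 2.80 and 4.40 at D180, and 4.09 and 3.23 at Y2. It fell by 2.66 (SE 0.21, adjusted p = 0.00108, limma) and then rose by 1.81 (SE 0.21, adjusted p = 0.00512, limma). TCONS_00133416 (chr5:42313674-42314800) fell by 2.58 and rose by 1.89, at adjusted p of 0.000376 and 0.00208. The locus sum, over 4 rows that were all members, was 78.4 and 82.1 FPKM in newborns, was 13.3 and 14.1 on D7 and stood at 48.9 and 50.8 on D28, against 7.51 to 10.7 in the late pigs. At this locus the D7 pigs stood nearer to the late pigs than to the other suckling pigs.

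On the minus strand of chromosome 17, TCONS_00085386 and TCONS_00085387 (chr17:34827052-34828114 and chr17:34827914-34828114) overlap the RefSeq lncRNA LOC106505983. TCONS_00085386 had a mean of 11.07 ± 1.46 FPKM (SD, n = 2) at D0, values of 1.70 and 1.44 at D7, a mean of 11.4 ± 0.382 (SD, n = 2) at D28, and values of 0.608 and 0.895 at D180, and 2.12 and 2.72 at Y2. It made the largest rise of the set from D7 to D28, of 2.27 (SE 0.15, adjusted p = 0.000766, limma), after a fall by 2.23. TCONS_00161585, on the plus strand of chr7:43800982-43807007, overlaps the lncRNA LOC102166347 and CRISP3, a gene for a secreted cysteine-rich protein, and was the most abundant dipping member. Its values were 26.1 and 26.7 FPKM at D0, 9.49 and 8.97 at D7, 45.4 and 45.1 at D28, 18.1 and 12.3 at D180, and 6.10 and 5.67 at Y2. For this lncRNA D28 was the highest age and D7 lay below D180.

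The other dipping members were named after their values were seen. TCONS_00083548 on chromosome 17, outside RefSeq genes, had 3.38 and 3.79 FPKM in newborns, 1.34 and 0.947 on D7, and 5.72 and 4.89 on D28. TCONS_00006192, inside CGRRF1, and TCONS_00136710, inside LOC100524254, stayed within 2.29 FPKM at every age. TCONS_00036575, TCONS_00095165 and TCONS_00133414 each had at most 1.05 FPKM at D7.

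Between D180 and Y2, the set differed from the lncRNAs at large. Over all rows 43.3% fell and 3.11% rose, and among the eligible rows 58.2% fell and 5.1% rose, whereas 10 members in 8 loci fell and 14 members in 13 loci rose. The median log2 change was 0.04 for the members, -0.64 for the eligible rows and -0.30 for all rows. The rule favours low late values, so this difference is not independent of it. With median-of-ratios scaling the step nearly vanished, with 4 members that rose and 2 that fell against 0.807% and 0.353% of all rows. When the 10 most abundant mRNAs were removed and the rest rescaled, 11 members rose and 2 fell. The share of all rows called was not computed for this setting. The median log2 change was then 0.08 for the members, -0.19 for the eligible rows and -0.08 for all rows.

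TCONS_00026570 and TCONS_00026569 made the largest falls at this step, by 3.81 and 3.80 (SE 0.20 and 0.22, adjusted p = 0.000108 and 0.000185, limma). Their locus, in which all 3 rows were members, summed to 31.7 and 24.6 FPKM at D180 and to 0.456 and 0.526 FPKM at Y2. These falls were called after median-of-ratios scaling as well, with log2 changes of -2.45 and -2.43. TCONS_00090324 fell by 1.06 and TCONS_00161585 by 1.21, and neither fall was called after median-of-ratios scaling.

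TCONS_00069806, on the plus strand of chr15:131098242-131098981 and overlapping the RefSeq lncRNA LOC106508137, made the largest rise, of 1.78 (SE 0.32, adjusted p = 0.0035, limma), from 0 in both D180 pigs to 3.04 and 1.91 FPKM at Y2. The sum of its locus, in which all 4 rows were members, was 1.49 and 0.826 FPKM at D180 and 4.72 and 3.87 at Y2. TCONS_00119400 rose by 1.54 and TCONS_00085387 by 1.48. Their rises were called after median-of-ratios scaling too (log2 changes of 1.61 and 1.35), while that of TCONS_00069806 was 1.34 with an adjusted p of 0.15. TCONS_00023041, which overlaps SPINK4 (chr10:33249509-33255688, minus strand), rose by 1.05 (adjusted p = 0.0301, limma), from 2.19 and 2.14 to 6.78 and 4.55 FPKM.

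Many members shared their position with other transcripts. Members that overlapped each other on a strand were joined into a locus, and the 100 members fell into 71 loci, of which 54 held 1 member and 17 held the other 46 members. With the other rows that overlap them on that strand, the 71 loci held 195 rows, of which 2 overlapped a pair of loci each, and in 35 loci every row was a member. Both ends were shared with another row for 24 members, against 10.9% of the eligible rows and 6.91% of all rows. For such isoforms the division of reads among rows is an estimate, and the value of a single row is uncertain. In 13 members, 1 suckling pig was listed at 0 while the other of its age had at least 0.5 FPKM. That was so for 7.19% of the eligible rows and 3.36% of all rows.

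When all rows of a locus were summed, 32 of the 36 loci that hold other rows were higher in the suckling period and 4 were higher in the late period. These sums include the members, which the rule chose, so the 32 are not independent of it. The rows that are not members were not compared as a set. In the other 35 loci the sum is that of the members alone. The largest reversal was that of TCONS_00195448, with a suckling mean of 10.7 FPKM and a late mean of 0.366 FPKM, whose locus of 9 rows had 191 and 416 FPKM. TCONS_00100232, within the RefSeq lncRNA LOC102163816 (chr2:6752030-6757178, minus strand), had 87.2 and 3.51 FPKM in the D0 pigs and 133 and 0.350 FPKM in the D28 pigs. Its suckling mean of 38.4 FPKM thus came from 1 pig at each of these ages, and its locus sum was 50.3 FPKM in the suckling and 79.1 FPKM in the late period. The locus sums of TCONS_00006037 and TCONS_00104255 were also higher in the late period. At the mitochondrial stretch the locus sums were 11.3 and 10.6 FPKM. The D0 pigs had 19.3 and 28.2 FPKM there and the other pigs 4.47 to 14.9, and the overlapping row TCONS_00195662 had a suckling mean of 4.71 and a late mean of 7.65 FPKM.

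**Figure D4:**
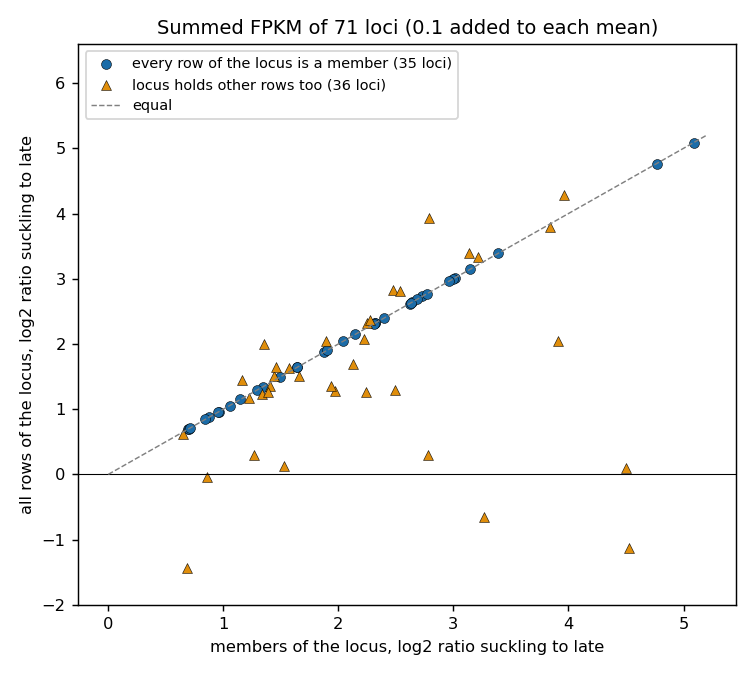
For each of the 71 loci, the log2 ratio of suckling to late FPKM (0.1 added to each mean) for its members summed (horizontal axis) and for all of its rows summed (vertical axis). The 35 loci in which every row is a member lie on the dashed line of equality, and the 4 loci below 0 are higher in the late period.

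The members lay on 20 chromosomes and scaffolds, with 15 on chromosome 1, 55 on the plus and 45 on the minus strand. Their median span was 996 nt, from 36 to 9567 nt. Spans under 200 nt, below the length limit described for the catalogue, were given for 10 members. A protein-coding RefSeq gene was overlapped, on either strand, by 31 members, against 60.1% of the eligible and 51.8% of all rows. A further 35 members overlapped a RefSeq lncRNA gene, against 17.4% and 17.8%. No RefSeq gene was overlapped by 32 members. Isoforms of a locus count as separate rows in these shares, and shares per locus were not computed.

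To see whether genes that hold a member followed it, their mRNAs were compared between the periods. The choice of members did not use the mRNA values, but these come from the same libraries. The gene positions carry no strand, and whether a member is part of the gene's own transcript was not tested. A member and the mRNA may therefore not be separate readouts. Of the 26 protein-coding genes overlapped by a member, 20 had a row in the mRNA table. By limma over 12354 mRNAs, 6 were lower and 7 were higher in the late period, against 2.1% and 87.3% of all mRNAs. The median log2 change was 0.21 for the overlapped genes and 1.11 for all mRNAs. After median-of-ratios scaling, which moved the median of all mRNAs to 0.02, 11 of the 20 were lower and 0 were higher (0 at an unadjusted p of at most 0.05 as well), against 11.2% and 6.78% of all mRNAs.

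The 6 lower genes were ADD2, SPINK4, SMIM5, SEC62, ANK1 and CRISP3. ADD2, which encodes beta-adducin of the red cell membrane skeleton, had means of 13.2 ± 0.323 FPKM at D0 and 5.26 ± 0.346 at D7 (SD, n = 2 each), and single values of 12.6 and 14.4 at D28, 0.748 and 0.971 at D180, and 1.63 and 2.18 at Y2. Its log2 change to the late period was -2.23 (SE 0.32, adjusted p = 4.8e-05, limma). Inside ADD2, on the plus strand, lay TCONS_00111190 (chr3:71790369-71791532), with 3.96 and 3.59 FPKM at D0, 0.484 and 0.774 at D7, 3.81 and 3.59 at D28, 0.0795 and 0.0886 at D180, and 0.740 and 0.755 at Y2. This lncRNA and the ADD2 mRNA both had their lowest suckling values at D7 and their lowest values of all at D180. The lncRNA fell by 1.56 to D7, rose by 1.53 to D28 (adjusted p = 0.00055 and 0.000766, limma) and rose by 0.69 from D180 to Y2. TCONS_00111193, from the same locus, differed widely between pigs, with 0 and 4.22 FPKM at D28.

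ANK1 encodes ankyrin, which ties that skeleton to the membrane. Its mRNA was at 3.99 and 4.43 FPKM at D0, 2.81 and 2.97 at D7, 4.61 and 4.40 at D28, and between 1.53 and 1.94 in the late pigs, with a log2 change of -0.82 (SE 0.22, adjusted p = 0.0023, limma). TCONS_00084579 (chr17:10757650-10758899, minus strand) lies within ANK1 and reaches the microRNA gene MIR486-1, whose product is abundant in red cells. It had 0.888 and 0.878 FPKM at D0, 0.383 and 0.114 at D7, 0.266 and 0.679 at D28, and at most 0.248 in the late pigs, and no step within a period was called for it.

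SPINK4, a serine peptidase inhibitor gene, had a mean of 102 FPKM in the suckling and 31.1 FPKM in the late period (log2 change -1.64, SE 0.29, adjusted p = 0.00014, limma). SMIM5 (4.51 and 1.05 FPKM) and SEC62, a gene of protein entry into the endoplasmic reticulum (79.6 and 41.4 FPKM), were named after their values were seen. CRISP3 was lower in the late period as well, at 0.639 and 0.149 FPKM. Among the 7 genes higher in the late period were NDUFAF8, an assembly factor of respiratory complex I (2.19 and 6.19 FPKM), and, named after their values were seen, the lymphocyte chemokine receptor gene CCR7 (5.76 and 17.6 FPKM) and the transcription factor gene ARID3A (3.43 and 13.4 FPKM). The member inside NDUFAF8, TCONS_00034074, had between 0.499 and 2.06 FPKM in the suckling pigs and was listed at 0 in 3 of the 4 late pigs, so that lncRNA and mRNA ran in opposite directions on the deposited scale. None of the 7 rises was called after median-of-ratios scaling, where the change of NDUFAF8 was -0.23 and that of CCR7 -0.36, and where SEC22C and ANLN were called lower.

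Within 100 kb of the loci lay 250 protein-coding genes, of which 149 had an mRNA row. In the late period 113 of them were higher and 15 lower, 75.8% and 10.1%, and their median log2 change was 1.09, near the 1.11 of all mRNAs. After median-of-ratios scaling the balance turned, with 4 higher (2.68%) and 32 lower (21.5%), against 6.78% and 11.2% of all mRNAs. NOX4, named after its values were seen, encodes an NADPH oxidase and lies 52385 nt from TCONS_00186608. Its mRNA had 0.891 and 0.957 FPKM at D0, 0.756 and 0.827 at D7, 0 and 0.00496 at D28, and was listed at 0 in the 4 late pigs. Its log2 change was -0.60 (SE 0.18, adjusted p = 0.00586, limma), with an adjusted p of 0.0706 after median-of-ratios scaling. The NOX4 mRNA and the lncRNA were both present at D0 and D7 and at or near 0 in the 6 older pigs.

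**Figure D5:**
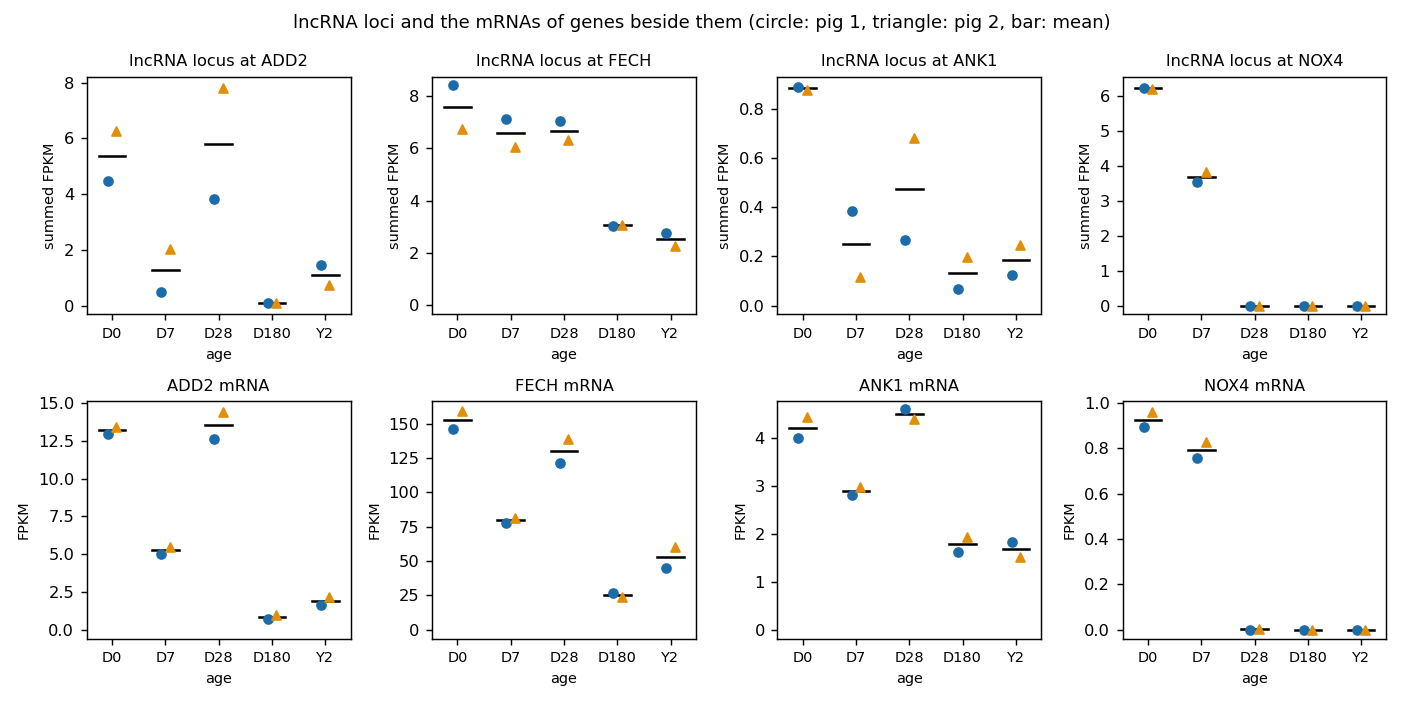
Summed FPKM of 4 lncRNA loci (top) and FPKM of the mRNA of a gene at each (bottom) by age, with a circle for pig 1, a triangle for pig 2 and a bar at the mean. ADD2 and its lncRNA locus are lowest at D180 and dip at D7, FECH and ANK1 are lower in the late pigs, and NOX4 and its lncRNA are at or near 0 from D28 on.

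The genes near the members included several of a list of erythroid genes, the longest of the lists used. Within 100 kb of a gene of this list of 66 lay 17 members in 7 loci, against 5.10% of the eligible rows and 1.87% of all rows. As isoforms of a locus share a position, the 17 are not separate cases. FECH, the gene for ferrochelatase, which completes heme synthesis, lay 401 nt from a locus of 6 members on the plus strand of chr1:106898808-106908149. The summed FPKM of that locus was 8.40 and 6.72 at D0, 7.11 and 6.06 at D7, 7.04 and 6.30 at D28, 3.05 and 3.08 at D180, and 2.77 and 2.26 at Y2. Its suckling and late pigs did not overlap, and unlike the FECH mRNA it had no marked dip at D7.

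The FECH mRNA was at 146 and 159 FPKM at D0, 78.0 and 81.7 at D7, 121 and 139 at D28, 27.0 and 24.1 at D180, and 44.7 and 60.6 at Y2 (log2 change -1.65, SE 0.33, adjusted p = 0.000282, limma). Near TAL1, a transcription factor gene of early blood and red cell formation, lay 3 members overlapping the RefSeq lncRNA LOC110261234, at 23727 and 25746 nt. They were named for that position, and the most abundant of them, TCONS_00158125, had 1.51 and 1.80 FPKM at D0, between 0.0550 and 1.08 at D7 and D28, and at most 0.133 in the late pigs. TCONS_00060082 lay 20433 nt from SLC25A37, the mitochondrial iron importer mitoferrin. It rose from 0.652 and 0.855 FPKM at D0 to 5.69 and 5.22 at D28, and stood at 1.58 and 1.34 at D180 and 0.131 and 0.506 at Y2. RHAG, a red cell membrane gene of the Rh complex, lay 66497 nt from the 4 members at CRISP3.

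The mRNAs of the erythroid list were largely lower in the late period. Of 56 measured genes, 44 were lower and 4 higher, against 2.1% and 87.3% of all mRNAs, and after median-of-ratios scaling 52 were lower and 0 higher (0 at an unadjusted p of at most 0.05). Their median log2 change was -1.14. HBZ, an embryonic globin gene, had means of 182 and 16.2 FPKM in the suckling and late periods. EPB42, for a membrane skeleton protein, had 56.4 and 6.69 FPKM, and SLC4A1, for the anion exchanger of the red cell membrane, had 33.1 and 10.7 FPKM. The 4 genes higher in the late period, GFI1B, CPOX, SELENBP1 and XK, reached late means of 1.18 to 4.88 FPKM, and none of them was called after that scaling. The summed FPKM of the list was 333146 to 487994 in the suckling pigs and 115286 to 285819 in the late pigs, mostly globin mRNA. The part of the erythroid share in the members' levels was not tested.

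The lists of the other blood cells are read against the 87.3% of all mRNAs that were higher and the 2.1% that were lower in the late period. In the late period 10 of 10 T cell, 7 of 7 B cell, 7 of 7 monocyte and 4 of 6 NK cell genes were higher, with 0 lower in these lists by limma, also at an unadjusted p of at most 0.05. Of 14 neutrophil genes 7 were higher and 2 lower, the latter MMP8 and ARG1. The platelet list had 0 of 8 called in either direction, also unadjusted. Of 13 cell division genes 10 were higher and 2 lower, and of 3 measured fetal and imprinted genes 1 was higher. With median-of-ratios scaling, where 6.78% of all mRNAs were higher and 11.2% lower, the rises that were called were 6 of the B cell genes and 2 of the neutrophil genes, while 6 of the 8 platelet and 4 of the 13 cell division genes were called lower, as was 1 gene each of the neutrophil, monocyte and fetal lists. ELANE, the neutrophil elastase gene, lay 48760 nt from 1 member, TCONS_00104255, while 0.32% of all rows lay within 100 kb of a neutrophil list gene. No gene of the monocyte, T cell, B cell, NK cell, platelet, cell division or fetal lists lay within 100 kb of a member. Of all rows, 0.084% to 0.32% lay that near to a gene of each of these lists, so 0 of 100 members is close to that share. Summed FPKM of the T cell list was 55.1 to 228 in the suckling and 259.9 to 548 in the late pigs, and that of the B cell list 6.80 to 27.5 and 59.9 to 117.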

How the data were processed

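The authors aligned the reads with HISAT2 2.0.4 to Sscrofa11.1 and deposited FPKM values, from StringTie 1.3.3 for mRNAs and the Cufflinks 2.2.1 programs for lncRNAs, scaled to each library's mapped reads and to transcript length. Each lncRNA row exceeded 0.1 FPKM in at least 1 library. All per-sample columns were used, and ages and pig numbers came from the sample labels. The members and gene lists were chosen with earlier results of these data known.

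Tests used limma 3.58.1 (R 4.3.3, mean-variance trend, log2(FPKM + 1), which understates changes of low rows), with Benjamini-Hochberg adjustment over each whole table. It replaced Cuffdiff, which needs reads. The late period was compared with the suckling period for mRNAs with 2 groups, which treats ages as replicates. Tables were made in Python 3.11.15 with pandas 2.3.3, numpy 2.4.6 and matplotlib 3.10.9, and limma was tested on simulated data. Symbols for 9735 of 12354 mRNAs and gene positions came from tables of the same assembly, with no gene strand. Sequences of the transcripts were not analysed here.

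Named lncRNAs were the 15 highest scores, the 10 highest suckling means, up to 4 called members each way with the largest change at each step, and members overlapping a listed gene. Named genes were those overlapped by them and the list genes. Some of these are not reported here. Alternatives were a pseudocount of 0.1, median-of-ratios scaling (11527 mRNAs above 0 in every library, assuming that most mRNAs do not change), removal of the 10 highest mRNAs, a filter of 1 FPKM in 2 libraries, no trend, fewer or more ages in the fit, a fold limit, a pig number block and each pig left out. Pig numbers did not pair the samples, as same-numbered pigs are different animals.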

Additional observations from a re-analysis of the deposited data

How the results depend on the processing

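Counts of members and mRNAs kept within 1.5 times of those reported with a pseudocount of 0.1, with the filter on low FPKM and without the trend. Other settings moved some of them, and the cause was not tested beyond what each setting removes. With median-of-ratios scaling, 43 members were lower at D7 than D0, 11 were higher and 22 lower at D28 than D7, and 4 were higher and 2 lower at Y2 than D180, while 0 overlapped mRNAs were higher and 11 lower in the late period and 0 erythroid mRNAs were higher. Removing the 10 highest mRNAs gave 11 members higher at D7 than D0, 2 lower at Y2 than D180, and 4 overlapped and 2 erythroid mRNAs higher in the late period. With just the ages compared in the fit, which leaves 4 libraries, there were 3 members higher and 5 lower at D7, 0 higher and 1 lower at D28 (20 higher at an unadjusted p of at most 0.05 by limma), and 8 higher and 6 lower at Y2. With 5 ages in the fit, 11 overlapped mRNAs were higher in the late period. A log2 fold limit of 1.5 left 8 members lower at D7 (and 5 higher), 7 higher and 5 lower at D28, and 2 higher and 2 lower at Y2. For the lncRNA steps, shares of all rows were computed for the reported fit and for median-of-ratios scaling alone.

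Leaving out each pig in turn gave 5 to 6 members higher and 14 to 21 lower at D7, 13 to 18 higher and 9 to 11 lower at D28, and 8 to 13 higher and 5 to 9 lower at Y2. The age left with 1 pig was assumed to vary like the others. The fall to D7 was called for 14 members without D7 pig 1 and 15 without D7 pig 2. The rise to Y2 was called for 8 members without D180 pig 2 or without Y2 pig 1. The fall to Y2 was called for 6 members without D180 pig 1 or either D7 pig, and for 5 without either Y2 pig. Of the mRNAs, 6 to 8 overlapped ones were higher and 6 to 7 lower in the late period, and 4 to 5 erythroid ones higher and 40 to 44 lower. Of the 100 members, 89 to 97 stayed among the highest scores without 1 pig, 83 did after median-of-ratios scaling, 87 once the 10 highest mRNAs were taken out and 96 when the offset was 1.

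With the pig number as a replicate block, 5 members were higher and 20 lower at D7, 17 higher and 10 lower at D28, and 14 higher and 9 lower at Y2. The deviations of same-numbered pigs correlated between -0.271 and 0.146 over the 10 pairs of ages. Same-numbered pigs are different animals, and whether their libraries shared a processing step was not tested. As the value of -0.271 belonged to D28 and D7, a crossed pairing was added after seeing the data and gave 15 members higher and 10 lower at D28. The number of fragments behind each FPKM value is not given, which limits statements on rows near 0.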
